A study of Homo sapiens with 6 samples.

Results

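The E2F transcription factors and their DP dimerization partners were followed through every probe set that the platform annotation pairs with E2F1 to E2F8, TFDP1 or TFDP2. This gave 22 probe sets for 10 genes, out of 54613 probe sets and 19775 genes in all, and each of the 22 was paired with 1 gene only. The members were chosen by gene family, with earlier results of these data already known. All 6 samples were LNCaP, an established prostate cancer line of human origin that responds to androgen, and RNA was read on Affymetrix arrays of 1 colour. In 3 samples a small interfering RNA (siRNA) had been aimed at the non-coding RNA PCARNEQ, called siPCARNEQ here, and in the 3 controls, called siEGFP, at EGFP, a jellyfish fluorescent protein. The sources used here do not give the siRNA sequences, dose or time of treatment, and the PCARNEQ level was not analysed here. Since no label says that a group's arrays came from separate cultures, the p-values cover the spread among these arrays, and that spread may be technical.

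E2F proteins bind DNA at the promoters of genes for DNA replication and cell cycle entry. E2F1, E2F2 and E2F3 are known as activators and are held back by the retinoblastoma protein RB until cyclin-dependent kinases phosphorylate it. E2F4 and E2F5 work mainly as repressors together with the pocket proteins RBL1 and RBL2, while E2F6 lacks the pocket-binding region and represses through Polycomb-type complexes. E2F7 and E2F8 are atypical members that carry a pair of DNA-binding domains, need no DP partner, and repress E2F target genes late in S phase. The other E2F proteins bind DNA as dimers with DP1, encoded by TFDP1, or DP2, encoded by TFDP2. E2F genes are themselves known E2F targets, so the family regulates its own transcription.

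The promoters of several members hold letters that match the E2F binding motif. The stretches shown here are those of the 3 activators, whose genes are the textbook case of this feedback, and of E2F7, the member with the largest change below, and each covers the 150 bases just before the annotated gene start (RefSeq, GRCh38.p14, gene strand, 5′ to 3′). Capitals mark matches on either strand to the 7-letter E2F motif TTNNCGC, in which each N is C or G. E2F1 is shown from chr20:33686386-33686535 on the minus strand, E2F2 from chr1:23531234-23531383 on the minus strand, E2F3 from chr6:20401729-20401878 on the plus strand and E2F7 from chr12:77065570-77065719 on the minus strand.
E2F1: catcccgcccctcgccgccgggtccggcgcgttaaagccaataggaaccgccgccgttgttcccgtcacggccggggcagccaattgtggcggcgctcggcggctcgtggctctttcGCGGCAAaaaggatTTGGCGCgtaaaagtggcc
E2F2: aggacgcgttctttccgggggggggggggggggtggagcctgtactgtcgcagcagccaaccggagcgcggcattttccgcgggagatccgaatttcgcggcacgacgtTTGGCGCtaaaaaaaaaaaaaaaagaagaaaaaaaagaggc
E2F3: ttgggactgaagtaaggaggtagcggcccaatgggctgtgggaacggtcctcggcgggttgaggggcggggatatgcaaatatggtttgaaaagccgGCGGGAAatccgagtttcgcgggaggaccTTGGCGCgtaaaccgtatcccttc
E2F7: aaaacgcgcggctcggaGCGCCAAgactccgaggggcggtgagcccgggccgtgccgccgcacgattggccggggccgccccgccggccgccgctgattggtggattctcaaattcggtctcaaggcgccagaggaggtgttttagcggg

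In the full RefSeq windows, from 250 bases before to 50 bases after the start, the 7-letter motif was found in 12.97% of 35116 promoters and the 8-letter form TTTNNCGC, which contains it, in 3.31%. E2F1 held 2 matches to the longer form, beginning at bases -33 and -20 from the start, and E2F2 held 1 at base -42. The upstream start of E2F3 held 1 match to the longer form at base -53 and 1 to the shorter form alone at base -24. E2F7 had no match to the longer form and 2 to the shorter, at bases -176 and -133, the second of which lies in the stretch shown. TFDP1 held 1 match to the longer form at base -120, and E2F6 had 1 match to the shorter form, 14 bases downstream of its start. No match was found for E2F4, for the second start of E2F3 or for the 3 starts of TFDP2, which says only that these letters are not in these windows. E2F5 and E2F8 are named only.

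**Figure D1:**
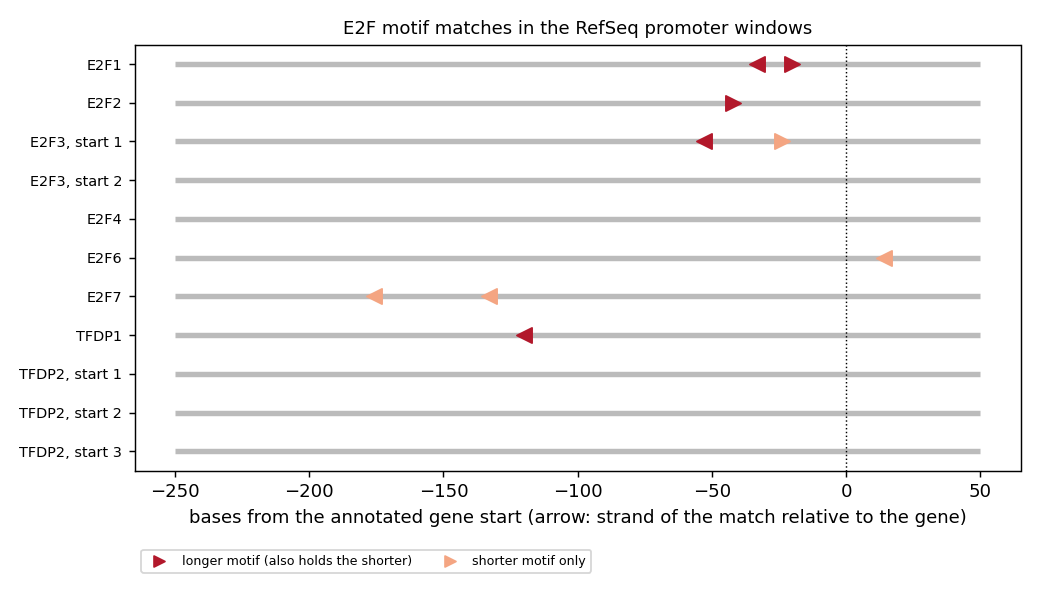
Position of E2F motif matches (arrows, pointing along the matched strand) in the promoter windows of 8 genes, in bases from the annotated start. Matches in the 3 activator genes lie between bases -53 and -20, those of E2F7 lie further upstream, and 5 of the 11 windows have none.

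The deposited values are RMA intensities, given here as log2, so that 1 unit is a 2-fold difference. All arrays share 1 distribution with a median of 7.03, and its lower part is where a level is not shown to be above background. In both groups array 1 stood apart. Its log2 values differed from those of arrays 2 and 3 with an SD over probe sets of 0.371 to 0.373 in siPCARNEQ and 0.232 to 0.239 in siEGFP, while arrays 2 and 3 differed with an SD of 0.136 and 0.129. For ACTB, the 3′ control probe set, whose excess is used to gauge RNA integrity, exceeded the 5′ one by 1.84 in siPCARNEQ array 1 and by 0.63 to 0.78 elsewhere. The part of this in the results below was not tested, and results that move with array 1 are given with and without it. In RNA from whole cultures, fewer cells of a type and less RNA per cell cannot be told apart.

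Luminal prostate markers, which define LNCaP cells, were bright. The summed intensity of 6 luminal prostate markers measured out of 8 was 50647 to 51962 in siPCARNEQ and 33377 to 37636 in siEGFP, and 4 of them rose. Over all genes 15.2% rose. Of 2 basal markers measured out of 3, 1 rose, KRT14 by 1.02 at levels below the array median in both groups, where a signal above background is not shown, with a summed intensity of 192.4 to 218.8 in siPCARNEQ and 170.3 to 188.6 in siEGFP. Of 3 neuroendocrine markers 1 rose, ENO2 by 0.72, at a sum of 722 to 1080.1 in siPCARNEQ and 541 to 642 in siEGFP, and of 3 fibroblast markers 1 rose, COL1A1 by 1.11, at 1801 to 2345 in siPCARNEQ and 996 to 1061 in siEGFP. With limma 0 of 2 immune and endothelial markers passed, and 0 at an unadjusted p below 0.05. At that unadjusted p, 3978 of all 19775 genes were higher and 3473 lower. The part of these markers in the results below was not tested.

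The atypical E2F7 and the repressors E2F5 and E2F6 fell in siPCARNEQ cells, E2F7 by the most. The E2F6 call was lost when siPCARNEQ array 2, siEGFP array 2 or siEGFP array 3 was left out. E2F8, the other atypical member, passed over genes and not over probe sets, and no probe set of the activators E2F1, E2F2 and E2F3 passed in the reported fit. With array 1 of both groups left out, E2F1 2028_s_at and E2F2 228361_at passed. The difference between classes was not tested. Of the 22 probe sets, 4 fell and 1 rose in siPCARNEQ by limma, where a call needs a p below 0.05 after Benjamini-Hochberg adjustment over all 54613 probe sets. Of all probe sets 8.61% fell and 9.92% rose. In 11 of the 22 all siPCARNEQ arrays lay below all siEGFP arrays, which was so for 19.1% of all probe sets, and in 1 they lay above, which was so for 18.6%. The count that fell was 7 without siPCARNEQ array 1, 9 with array 1 of both groups left out, and 2 when siEGFP array 2 or siEGFP array 3 was left out. The count that rose was 2 without siPCARNEQ array 1 and 3 with array 1 of both groups left out. The number of all 54613 probe sets that changed moved as well, to 17104 with array 1 of both groups left out. With any 1 array left out it was between 5829 and 13232, where 4702 fell and 5420 rose as reported. With 1 probe set per gene, the one with the highest mean over the 6 arrays, 4 of the 10 genes fell and 0 rose, where 12.3% of all genes fell and 15.2% rose. By limma 0 of the 10 were higher at an unadjusted p below 0.05, where 3978 of all 19775 genes were. By class the genes that fell were 0 of 3 activators, 2 of 3 repressors, both atypical members and 0 of 2 DP genes. Member genes that fell numbered 7 with array 1 of both groups left out, and 2 without siEGFP array 2 or without siEGFP array 3. All genes changed numbered 8229 with array 1 of both groups left out and 3701 to 6303 with any 1 array left out. As reported, 2438 of all genes fell and 3007 rose.

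**Figure D2:**
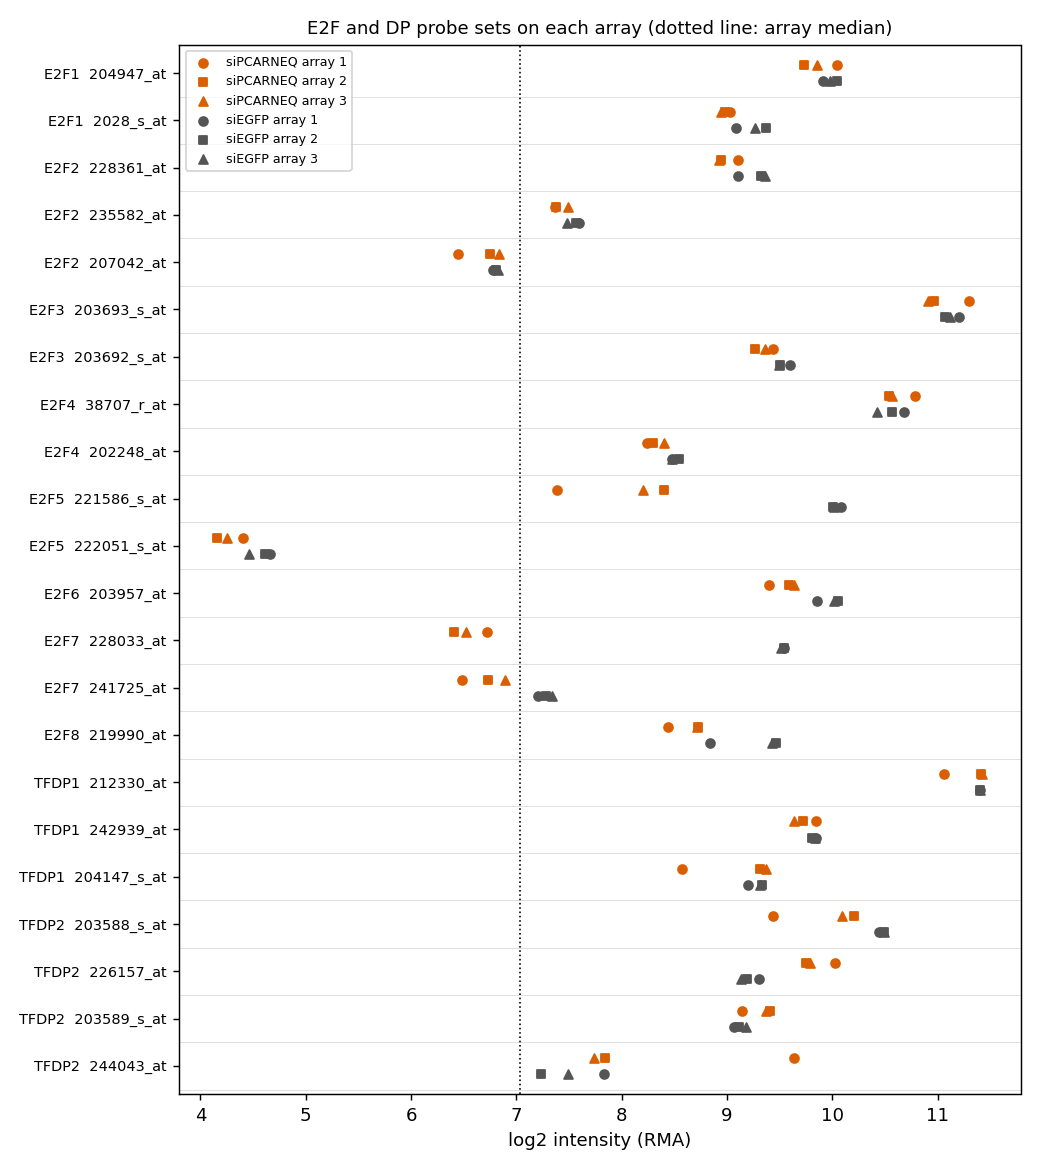
log2 intensity of each of the 22 probe sets on the 3 siPCARNEQ arrays (orange, upper) and the 3 siEGFP arrays (grey, lower), with 1 marker shape per array number and the array median as a dotted line. The groups are far apart for E2F7 228033_at and E2F5 221586_s_at and lie close together for the activators.

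E2F7, an atypical repressor whose gene is itself a known E2F target, had the largest change of the family. Its brighter probe set, 228033_at, had log2 intensities of 6.72, 6.41 and 6.52 in siPCARNEQ, against 9.54, 9.54 and 9.51 in siEGFP. All siPCARNEQ values lay below the array median and all siEGFP values well above it, and the gap between the nearest arrays of the groups was 2.78. The level fell by 2.98 on the log2 scale (SE 0.09, 95% interval -3.20 to -2.75, adjusted p = 7.48e-05), which made the intensity 7.88-fold lower in siPCARNEQ. That fold is between intensities as given, since the siPCARNEQ level is not shown to be above background. The change was -2.81 between the arrays numbered 1, -3.13 between those numbered 2 and -2.99 between those numbered 3. The dimmer probe set, 241725_at, read 6.48, 6.73 and 6.89 in siPCARNEQ and 7.21, 7.28 and 7.33 in siEGFP. These groups did not overlap either, but the change was smaller, at -0.57 (SE 0.11, adjusted p = 0.0133). The siPCARNEQ values of 241725_at also lay below the array median, where a signal above background is not shown, and its siEGFP values lay just above it. That second call did not hold without siEGFP array 2 (adjusted p = 0.0581), without siEGFP array 3 (0.0624) or with arrays 2 and 3 of a group averaged into 1 replicate (0.103). Averaged over both probe sets, E2F7 changed by -1.78 (adjusted p = 3.14e-05 over genes), so the size of the fall depends on the probe set while its direction does not.

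E2F8, the other atypical member, had 1 probe set, 219990_at. It read 8.44, 8.72 and 8.72 in siPCARNEQ and 8.84, 9.46 and 9.42 in siEGFP. The lowest siEGFP value, array 1, came within 0.12 of the highest siPCARNEQ value, and array 1 was the lowest in each group. The change of -0.61 (SE 0.18, 95% interval -1.04 to -0.19) lay on the edge of the threshold, with an adjusted p of 0.0551 over all probe sets and 0.0365 over genes. With the replicate number as a block the adjusted p over probe sets was 0.00892. Leaving out 1 array moved the adjusted p over genes between 0.00445, without siEGFP array 1, and 0.126, without siEGFP array 2 or array 3. Without any one siPCARNEQ array it did not pass either (0.0638 to 0.0839). With array 1 of both groups left out the change was -0.72, which passed over probe sets (adjusted p = 0.000687) and over genes (0.000379). Per array, the E2F7 value minus the E2F8 value changed by -2.36 in siPCARNEQ relative to siEGFP, with no overlap between groups. The 2-sided exact permutation p was 0.1, the smallest that 3 against 3 arrays allow, and 0.2 adjusted over 6 pairs of members, so no pair could pass. With the probe sets of a gene averaged, the difference was -1.16.

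Among the repressors, E2F5 had the second-largest fall of the family. The probe set 221586_s_at had log2 intensities of 7.39, 8.40 and 8.20 in siPCARNEQ, against 10.08, 10.01 and 10.01 in siEGFP. The siEGFP arrays lay close together, siPCARNEQ array 1 was the lowest by a wide margin, and the nearest arrays of the groups were 1.60 apart. The level fell by 2.04 on the log2 scale (SE 0.24, 95% interval -2.61 to -1.46, adjusted p = 0.00181), a 4.10-fold lower intensity. Without siPCARNEQ array 1 it fell by 1.73. The other probe set, 222051_s_at, lay at the 11.1 percentile of all probe sets, with 4.40, 4.16 and 4.25 in siPCARNEQ and 4.66, 4.61 and 4.47 in siEGFP. At that level a signal above background is not shown, and the change of -0.31 did not pass (adjusted p = 0.0646). It did with the replicate block (0.0475), with centring on ribosomal protein genes (0.037) and without siPCARNEQ array 1 (0.0188). Averaged over both, E2F5 changed by -1.17 (adjusted p = 0.000471 over genes).

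E2F6, the Polycomb-linked repressor, fell by a smaller step. Its only probe set, 203957_at, read 9.40, 9.58 and 9.64 in siPCARNEQ and 9.85, 10.05 and 10.02 in siEGFP. The groups were separated by 0.22 and the change was -0.43 (SE 0.10, adjusted p = 0.0209). The call was lost without siPCARNEQ array 2 (adjusted p = 0.0522), without siEGFP array 2 (0.0912), without siEGFP array 3 (0.0879) and with arrays 2 and 3 averaged (0.162), while the change stayed between -0.49 and -0.36 with any 1 array left out. Over genes, where the adjusted p was 0.0118, it became 0.0554 when siEGFP array 2 was left out and 0.0526 when siEGFP array 3 was. The E2F5 change minus the E2F6 change was -1.60, with no overlap between groups (exact permutation p = 0.1, and 0.2 adjusted over the 6 pairs), and -0.74 with probe sets averaged.

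E2F4, usually the most abundant repressor E2F in resting cells, did not pass in either probe set. The brighter, 38707_r_at, read 10.79, 10.53 and 10.57 in siPCARNEQ and 10.68, 10.57 and 10.42 in siEGFP, and the groups overlapped. Its change was 0.07 with a 95% interval of -0.17 to 0.32, and it was -0.0062 without siPCARNEQ array 1. The other, 202248_at, had 8.24, 8.30 and 8.40 in siPCARNEQ and 8.48, 8.54 and 8.48 in siEGFP. There the groups were separated by 0.07, with a change of -0.19 (95% interval -0.36 to -0.01, adjusted p = 0.148). The 2 probe sets thus had changes of opposite sign, both small.

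**Figure D3:**
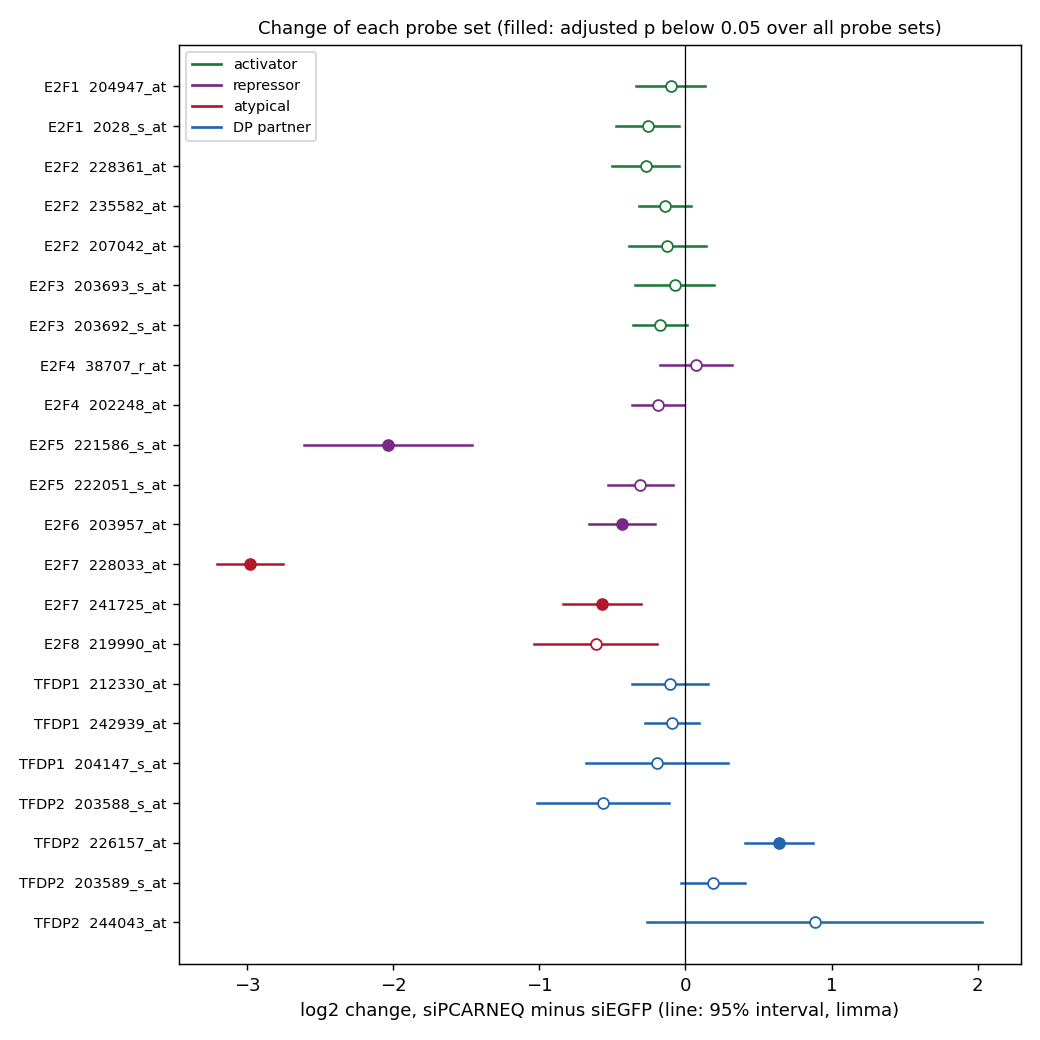
log2 change of each probe set, siPCARNEQ minus siEGFP, with its 95% interval from limma, coloured by class and filled where the adjusted p over all probe sets was below 0.05. E2F7 at -2.98 and E2F5 at -2.04 stand apart, and all 7 activator probe sets have open symbols with changes from -0.27 to -0.07.

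The activators had small negative changes in every probe set. E2F1, which drives S phase entry and whose brighter probe set 204947_at lay at the 82.7 percentile of all probe sets, read 10.05, 9.73 and 9.85 in siPCARNEQ and 9.91, 10.05 and 9.98 in siEGFP. The groups overlapped and the change was -0.10 (95% interval -0.34 to 0.13, adjusted p = 0.559). Between the arrays numbered 1 it was 0.14, and between those numbered 2 and 3 it was -0.32 and -0.13. It was -0.19 without siPCARNEQ array 1 (adjusted p = 0.141), and with array 1 of both groups left out it was -0.22, which passed over genes (adjusted p = 0.0399) and not over probe sets (0.0607). Its second probe set, 2028_s_at, had 9.02, 8.98 and 8.94 in siPCARNEQ and 9.08, 9.37 and 9.27 in siEGFP. Here the siPCARNEQ arrays were lower by a margin of 0.06, with a change of -0.26 (adjusted p = 0.102). It passed without siEGFP array 1 (-0.34, adjusted p = 0.0445) and with array 1 of both groups left out (-0.36, adjusted p = 0.0101).

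E2F2, the second activator, was read by 3 probe sets. The brightest, 228361_at, had 9.10, 8.94 and 8.92 in siPCARNEQ and 9.10, 9.32 and 9.36 in siEGFP, a change of -0.27 (95% interval -0.50 to -0.04, adjusted p = 0.107). The arrays numbered 1 were level, and the difference came from arrays 2 and 3, at -0.41, where it passed when array 1 of each group was left out (adjusted p = 0.00405). It also passed without siPCARNEQ array 1 alone, at -0.33 (adjusted p = 0.0455). Over genes the adjusted p of E2F2 was 0.0726. It was 0.0359 without siPCARNEQ array 1, 0.0313 without siEGFP array 1 and 0.00194 with array 1 of both groups left out. The other probe sets of E2F2, 235582_at and 207042_at, had changes of -0.14 and -0.12 with overlapping groups, and 207042_at lay below the array median and had a change of -0.0075 without siPCARNEQ array 1.

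E2F3, the activator with a pair of annotated starts in the promoter table, read 11.29, 10.96 and 10.91 in siPCARNEQ and 11.20, 11.07 and 11.12 in siEGFP with 203693_s_at. The groups overlapped, with a change of -0.07 (95% interval -0.34 to 0.20, adjusted p = 0.731). It was -0.19 without siPCARNEQ array 1 (adjusted p = 0.111), -0.16 with array 1 of both groups left out (0.1) and -0.0005 without siPCARNEQ array 3. With 203692_s_at the values were 9.43, 9.27 and 9.36 in siPCARNEQ and 9.60, 9.50 and 9.49 in siEGFP, and the change was -0.18 (adjusted p = 0.185) with a gap of 0.06 between groups. All 7 activator probe sets had a negative change, 0 passed over all probe sets, and 2 of the 7 were lower at an unadjusted p below 0.05 with limma. Among all 54613 probe sets, 28741 had a negative change and 7888 were lower at that unadjusted p. The median change of the activator probe sets was -0.14, against -0.31 over the 5 repressor ones, -0.61 over the 3 atypical ones, -0.09 over the 7 DP ones and -0.01 over all. The repressor median is that of E2F5 222051_s_at, at the 11.1 percentile of all probe sets, where a signal above background is not shown. The atypical median is that of E2F8 219990_at. Neither probe set passed, and the difference between classes was not tested. The E2F1 change differed from that of E2F3 by -0.03 and from that of E2F4 by -0.17, and the E2F2 change from that of E2F3 by -0.20, with overlap in each (exact permutation p = 0.9, 0.3 and 0.3, and 0.9, 0.36 and 0.36 adjusted over the 6 pairs).

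The DP genes gave no call over genes. TFDP1, which encodes the main DP partner in most cells, read 11.06, 11.41 and 11.42 in siPCARNEQ and 11.40 on each siEGFP array in its brightest probe set, 212330_at. Only siPCARNEQ array 1 was low. The change of -0.10 (95% interval -0.36 to 0.16) became 0.016 without that array. The probe set 204147_s_at had the same array low, at 8.57 beside 9.31 and 9.37 in siPCARNEQ and 9.19, 9.33 and 9.31 in siEGFP, and its change of -0.19 became 0.062 without it. The third, 242939_at, had a change of -0.09, and none of the 3 passed (adjusted p from 0.497 to 0.597).

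TFDP2, the gene of the other DP partner, gave opposite signs in different probe sets. The brightest, 203588_s_at, had log2 intensities of 9.44, 10.20 and 10.09 in siPCARNEQ, against 10.44, 10.49 and 10.49 in siEGFP. All siPCARNEQ arrays were lower, array 1 most, and the change was -0.56 (SE 0.19, adjusted p = 0.0921). Over genes its adjusted p was 0.0644, and 0.0302 with the replicate block. Without siPCARNEQ array 1 the change shrank to -0.33 and passed (adjusted p = 0.0163 over probe sets). The next probe set, 226157_at, went the other way, with 10.02, 9.75 and 9.78 in siPCARNEQ and 9.30, 9.19 and 9.14 in siEGFP. It rose by 0.64 (SE 0.10, 95% interval 0.41 to 0.87, adjusted p = 0.00483), a 1.56-fold higher intensity with a gap of 0.44 between groups, and its adjusted p was 0.0759 with arrays 2 and 3 averaged.

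The remaining TFDP2 probe sets had positive changes that did not pass. The probe set 203589_s_at read 9.14, 9.41 and 9.37 in siPCARNEQ and 9.06, 9.11 and 9.18 in siEGFP, a change of 0.19 (adjusted p = 0.235, and 0.0331 at 0.27 without siPCARNEQ array 1). With 244043_at, siPCARNEQ array 1 stood at 9.63 beside 7.84 and 7.74, against 7.83, 7.24 and 7.49 in siEGFP, and the change of 0.88 (SE 0.49, adjusted p = 0.28) was 0.27 without that array. Averaged over its 4 probe sets TFDP2 had a change of 0.29 (adjusted p = 0.0644), against -0.56 in the brightest alone, so no direction can be given for the gene. The TFDP1 change minus the TFDP2 change was likewise 0.46 with the brightest probe sets and -0.42 with the averages (exact permutation p = 0.1 for both, and 0.2 adjusted over the 6 pairs for the first).

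**Figure D4:**
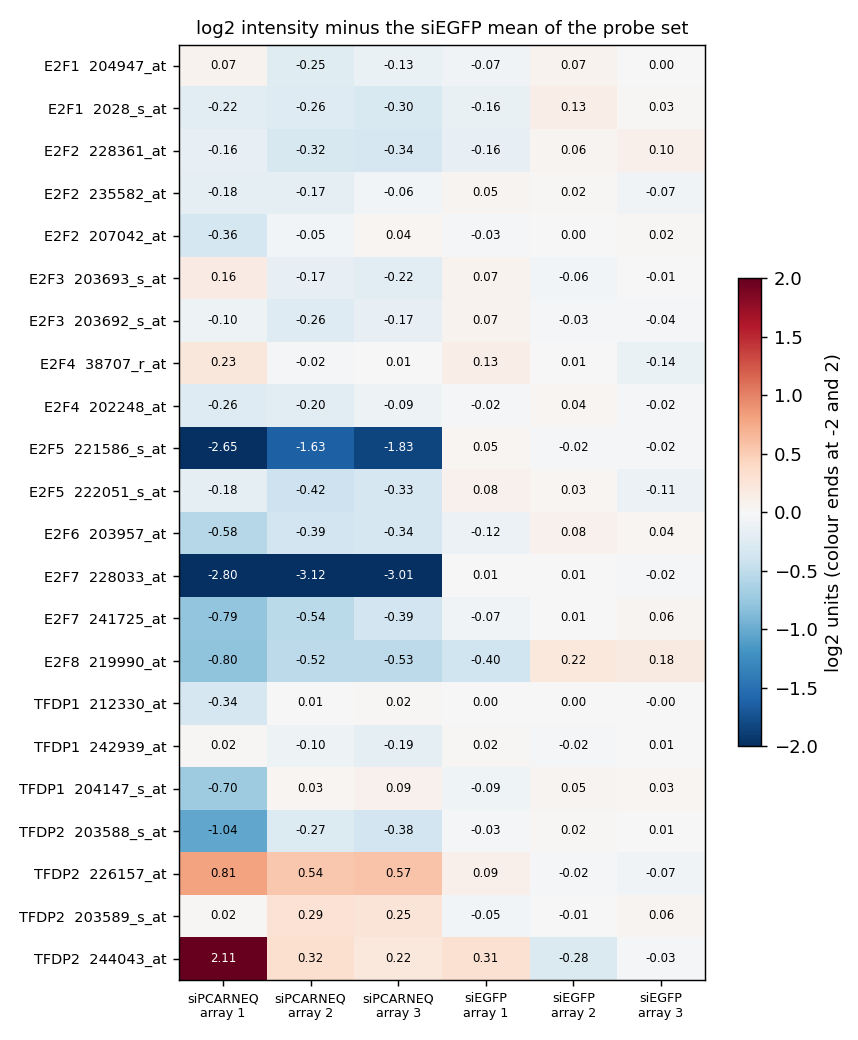
log2 intensity on each array minus the siEGFP mean of the same probe set, with siPCARNEQ arrays in the left 3 columns and siEGFP arrays in the right 3. E2F7 228033_at and E2F5 221586_s_at are low on all 3 siPCARNEQ arrays, siPCARNEQ array 1 alone is low for 2 TFDP1 probe sets, and the TFDP2 probe sets differ in sign.

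Genes with the most similar values to E2F7 and E2F5, the members that fell by at least 1 on the log2 scale, were found by the Euclidean distance over the 6 arrays after subtracting each gene's siEGFP mean, among 19775 genes. The nearest to E2F7 were DTD2 (distance 0.603, change -2.81), EMB (0.662, -2.67) and SMIM13 (0.676, -2.74). The nearest to E2F5 were HSPA13 (distance 0.171, change -1.99), HIGD1A (0.183, -2.07) and PDZD8 (0.275, -1.92). The distance is a description of likeness over these arrays, in which the shared fall weighs most.

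The pocket proteins, through which most E2F proteins are restrained, gave 1 that fell, 1 that rose and 1 that did not pass. Over all genes 12.3% fell and 15.2% rose. RB1, the retinoblastoma gene, had 10.81, 10.96 and 10.77 in siPCARNEQ and 10.72, 11.11 and 10.92 in siEGFP, a change of -0.07 (adjusted p = 0.69 over genes). RBL1, itself a known E2F target, fell by 0.99 (SE 0.14, adjusted p = 0.0019), with 7.45, 7.61 and 7.48 in siPCARNEQ against 8.19, 8.69 and 8.62 in siEGFP. RBL2, the pocket protein of resting cells and a partner of E2F4 and E2F5, rose by 0.79 (SE 0.08, adjusted p = 0.000414), with 11.86, 12.01 and 11.96 in siPCARNEQ against 11.07, 11.22 and 11.17 in siEGFP. Neither RBL1 nor RBL2 had overlapping groups.

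Of the cyclins, kinases and phosphatase that lift RB restraint, 3 of 10 fell and 0 rose, with 1 higher at an unadjusted p below 0.05 with limma. Over all genes 12.3% fell and 15.2% rose, and 3978 of 19775 were higher at that unadjusted p. CCNE2, the E-type cyclin encoded by a known E2F target, fell by 1.65 (SE 0.16, adjusted p = 0.000491), CDC25A, a phosphatase that activates CDK2, by 0.87 and CCNA2, the S phase cyclin, by 0.91. CCNE1, the other E-type cyclin, had a change of 0.07 (adjusted p = 0.717). The D-type cyclin genes CCND1, CCND2 and CCND3, which start RB phosphorylation, had changes of 0.48, 0.13 and -0.02, and the kinases CDK4, CDK6 and CDK2 had -0.31, -0.29 and -0.20, with adjusted p from 0.0573 to 0.866. In the blocked fit CCND1, CDK4 and CDK6 passed in those directions (adjusted p = 0.0386, 0.0225 and 0.049), which made 5 that fell and 1 that rose. CCND1 and CDK4 also passed without siPCARNEQ array 1 (0.27, adjusted p = 0.0133, and -0.21, adjusted p = 0.0477) and CDK6 without siEGFP array 1 (-0.49, adjusted p = 0.0358).

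Of 6 CDK inhibitors measured out of 7 listed, 1 rose and 1 fell, where 15.2% of all genes rose and 12.3% fell. CDKN1C, a broad inhibitor of G1 cyclin-dependent kinases, rose by 1.72 (SE 0.13, adjusted p = 0.000187), with 9.48, 9.04 and 8.98 in siPCARNEQ against 7.47, 7.48 and 7.38 in siEGFP. Averaged over its probe sets it rose by 0.78 (adjusted p = 0.000405). CDKN2A, which encodes an inhibitor of CDK4 and CDK6, fell by 0.81 (adjusted p = 0.00213). CDKN1A and CDKN1B had changes of 0.21 and 0.23, and CDKN2B and CDKN2D of -0.07 and 0.07, none of which passed. Without siEGFP array 1, CDKN1A passed at 0.28 (adjusted p = 0.0304).

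Known E2F targets of the G1/S transition were lower almost throughout. Of 32 measured out of 35 listed, 28 fell and 0 rose, with 0 higher at an unadjusted p below 0.05 with limma. Over all genes 12.3% fell, and 3978 of 19775 were higher at that unadjusted p. The median change of the 32 targets was -0.69, against -0.01 over all genes, and the range was -2.04 to -0.02. GINS1, part of the complex that unwinds DNA at the replication fork, fell by 2.04 (SE 0.07). MCM6, from the hexamer at the core of that complex, fell by 1.79 (SE 0.15). BRCA1, a DNA repair factor, fell by 0.77 and CDT1, which licenses origins, fell by 0.68. The 4 members that did not pass, named after their values were seen, were TK1 (-0.59), DNMT1 (-0.22), UHRF1 (-0.19) and POLA1 (-0.02). The count that fell was 8 with arrays 2 and 3 averaged, 31 with array 1 of both groups left out, and 19 when siEGFP array 2 or siEGFP array 3 was left out. All genes changed numbered 2236 with that averaging and 8229 with array 1 of both groups left out. As reported, 2438 of all genes fell and 3007 rose. The proliferation markers MKI67 and TOP2A changed by -0.57 (adjusted p = 0.0258) and -0.92 (0.00287), at a summed intensity of 1996 to 2635 in siPCARNEQ and 3596 to 4800 in siEGFP, and the part of dividing cells in the values of the family and its targets was not tested. The list was chosen with a fall of DNA replication genes in these arrays already known, so its count is a description of size and not separate support.

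Partners and regulators of the family fell in part. Of the 7 genes of the MuvB complex and its partners, which assemble with E2F4 or E2F5 and RBL2 to silence cell cycle genes or with MYBL2 and FOXM1 to activate them, 5 fell and 1, LIN52, rose by 0.37. Over all genes 12.3% fell and 15.2% rose. LIN37 was also higher, by 0.28, with no overlap between groups, and did not pass (limma adjusted p = 0.0546 over genes). In all, 2 of the 7 were higher at an unadjusted p below 0.05 with limma, as were 3978 of all 19775 genes. Without siEGFP array 2 or without siEGFP array 3, 3 of the 7 fell and 0 rose. LIN9 and LIN54, both MuvB subunits, fell by 1.03 and 0.45, the second at levels below the array median. LIN9 fell by 0.53 with its probe sets averaged (adjusted p = 0.0132) and by 0.44 when those that may match several transcripts were left out (0.019). FOXM1, a mitotic activator, fell by 0.88 (adjusted p = 0.0182, and 0.0732 and 0.0687 without siEGFP array 2 and array 3). RBBP4, a histone-binding subunit, fell by 0.69 in its brightest probe set but had a change of -0.05 averaged over its probe sets and 0.53 (adjusted p = 0.157) when probe sets that may match several transcripts were left out. Of 4 genes for turnover of E2F proteins or their regulators, the ubiquitin ligase subunits CCNF and SKP2 fell by 0.69 and 0.67 and CDC20 by 1.06, while FZR1 had a change of 0.05. Averaged over its probe sets, SKP2 fell by 1.09.

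Of 10 measured genes of the E2F6-associated complexes, 5 fell and 1, EPC1, rose by 0.47, a call lost without siEGFP array 2 or array 3. Over all genes 12.3% fell and 15.2% rose. CBX3, a heterochromatin protein, fell by 0.92 (SE 0.07, adjusted p = 0.000149), WDR5 by 0.83, RYBP by 0.47 and PCGF6 by 0.41. When probe sets that may match several transcripts were left out, CBX3 fell by 0.42 (adjusted p = 0.00536), while WDR5 and RYBP had changes of -0.10 and -0.17 and did not pass. Averaged over its probe sets, WDR5 fell by 0.47. MAX, L3MBTL2, RING1 and MGA had changes from -0.15 to 0.10 that did not pass. Of 5 germline genes whose counterparts E2F6 is known to silence in mouse somatic cells, among them STAG3 and SMC1B, 0 rose and 0 fell with limma, 0 passed at an unadjusted p below 0.05, and changes ran from -0.20 to 0.02. At that unadjusted p, 3978 of all 19775 genes were higher and 3473 lower. STAG3 had a mean level of 8.06 over the 6 arrays. SLC25A31, SMC1B, STK31 and TEX11 had 3.33, 4.92, 5.37 and 5.62, below the array median, where a signal above background is not shown and a fall might not be seen.

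Of 6 measured apoptosis genes known as E2F targets out of 9 listed, 3 fell and 1 rose, where 12.3% of all genes fell and 15.2% rose. BCL2L11, which encodes the pro-death protein BIM, fell by 1.29 (SE 0.08, adjusted p = 9.91e-05), with 9.25, 9.50 and 9.43 in siPCARNEQ against 10.70, 10.72 and 10.65 in siEGFP. Averaged over its probe sets it fell by 0.60 (adjusted p = 0.000504). PMAIP1, a pro-death gene, fell by 0.42 and MCL1, a survival gene, by 0.36. With its probe sets averaged, MCL1 fell by 0.55. CASP8, an initiator caspase, rose by 0.49, with 0.29 when averaged over its probe sets (adjusted p = 0.134) and 0.081 when probe sets that may match several transcripts were left out (adjusted p = 0.665). PMAIP1 and MCL1 did not pass without siPCARNEQ array 2 or 3 or without siEGFP array 2 or 3 (adjusted p from 0.054 to 0.0848), CASP8 did not pass without siPCARNEQ array 2 (0.0581), and MCL1 did not pass without siEGFP array 1 (0.06). APAF1 and TP73, other known E2F1 targets, had changes of -0.01 and -0.09.

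**Figure D5:**
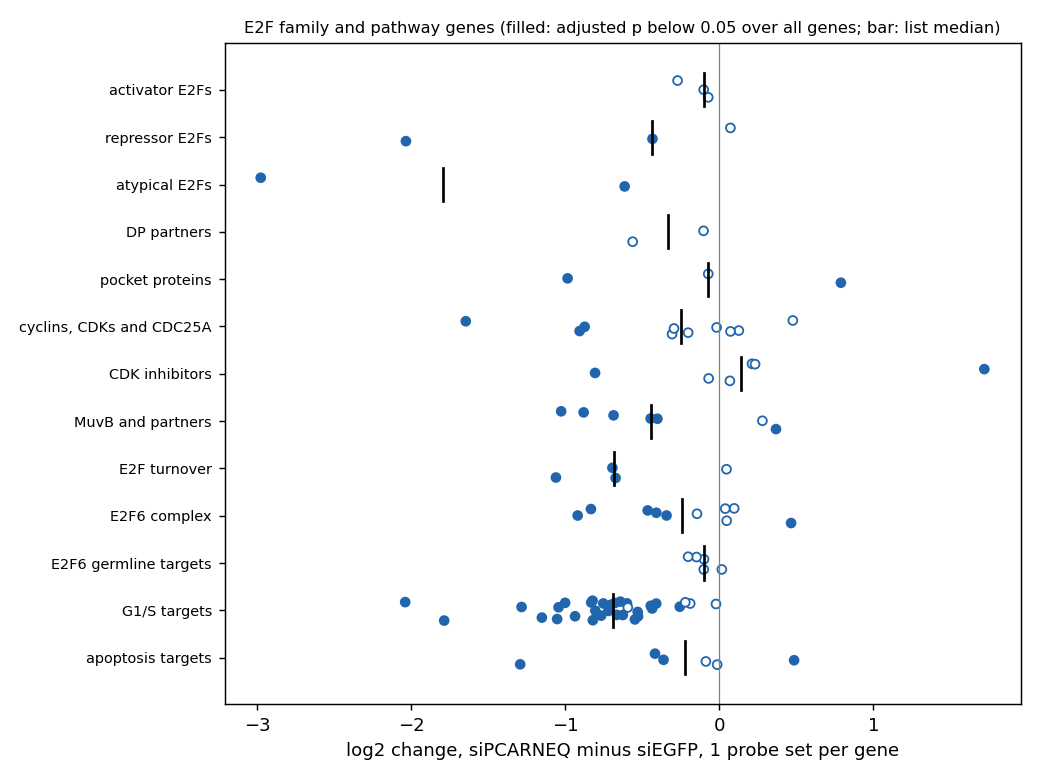
log2 change of each measured gene, siPCARNEQ minus siEGFP, by E2F class and pathway list, with 1 probe set per gene, filled where the adjusted p over all genes was below 0.05 and with a bar at the list median. The G1/S targets lie left of 0 with a median of -0.69, while the activator E2F genes lie near 0 with a median of -0.10.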

How the data were processed

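Gene expression was measured in 6 samples of LNCaP cells, 3 treated with siRNA to PCARNEQ and 3 with siRNA to EGFP. The deposited intensity values are linear and come from RMA (robust multi-array average), run by the authors per the submitters' processing notes, which name no version. Ranked log2 values match between arrays within 0.0049, so a change in total RNA cannot be seen. No values below 0 or at 0 occurred, and log2 was taken without a pseudocount. Of 54675 probe sets, 62 controls were left out and 54613 were tested. The platform annotation pairs 41091 of these with 1 gene, which gave 19775 genes, each read by its brightest such probe set, by the mean of all arrays. The number of arrays limits the precision.

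Groups were compared with limma 3.58.1 (lmFit and eBayes) in R 4.3.3 across all probe sets or all genes, with no covariates, 2-sided, with Benjamini-Hochberg adjustment over the whole table and a threshold of 0.05. The fit was tested on simulated data. Pairs of members were compared with exact permutation tests in SciPy 1.17.1. Arrays with the same number deviated together (correlations of 0.47, 0.30 and 0.34 across probe sets), so the numbers may pair the arrays, a pairing that no label states. It rests mainly on array 1: siPCARNEQ array 2 with siEGFP array 3 gave 0.37 and siPCARNEQ array 3 with siEGFP array 2 gave 0.24, so numbers 2 and 3 are not set apart. The replicate block is an alternative here, and the reported fits and permutation tests did not pair the arrays.

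All probe sets of the 10 members are given. From the lists, up to 4 genes with the smallest p among those that passed are named, and every pocket protein, cyclin, CDK and CDK inhibitor; others were named after their values were seen. Members and lists were chosen with earlier results of these data known, and the lists were drawn from general knowledge. List genes that no such probe set reads were not analysed here. Alternatives covered the block, each array left out, arrays 2 and 3 averaged or alone, repeated quantile normalization, cyclic loess, centring on ribosomal protein genes, dim probe sets left out, trended robust eBayes, Benjamini-Yekutieli adjustment, and other ways to represent a gene.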

Additional observations from a re-analysis of the deposited data

How the results depend on the processing

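Repeated quantile normalization, cyclic loess, centring on ribosomal protein genes, trended robust eBayes and leaving out dim probe sets kept every count of members that fell or rose within 1.5 times of the reported one. The median change of all genes was -0.05 with ribosomal centring and -0.01 as reported. The replicate number as a block gave 6 member probe sets that fell in place of 4, and besides the calls given with the results it changed the call of none of the members. Member probe sets that fell numbered 2 with arrays 2 and 3 averaged, 9 with those arrays only and 2 with Benjamini-Yekutieli adjustment, and those that rose 0, 3 and 0, against 4 and 1 as reported. Leaving out 1 array gave 2 to 7 that fell and 1 to 2 that rose. Member genes that fell numbered 2, 7 and 2 under the same 3 settings and 2 to 5 with 1 array left out, and 1 member gene, TFDP2, rose when probe sets ending in _x_at, _s_at or _a_at were left out, a setting under which E2F3 and E2F5 had no probe set. All probe sets changed numbered 10122 as reported, 2264 with averaging, 17104 with arrays 2 and 3 only, 3417 with Benjamini-Yekutieli and 5829 to 13232 with 1 array left out. All genes changed numbered 5445, against 2236, 8229, 2417 and 3701 to 6303. G1/S targets that fell numbered 28, against 8 with averaging, 10 with Benjamini-Yekutieli and 16 without the suffixed probe sets. The E2F7 228033_at and E2F5 221586_s_at falls passed under every alternative run, with adjusted p of at most 0.0219 and 0.0385.

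Directions turned for values near 0 or where probe sets disagree, and the cause was not tested. Without siPCARNEQ array 1, E2F4 38707_r_at turned to -0.0062 (up to 0.13 with another array left out), TFDP1 212330_at to 0.016 (down to -0.16), TFDP1 204147_s_at to 0.062 (down to -0.34) and CCNE1 to -0.065 (up to 0.15). With arrays 2 and 3 only the last 3 stood at 0.016, 0.019 and -0.029. Without siEGFP array 2 RB1 turned to 0.022 (down to -0.17 with another left out), and without siEGFP array 3 CDKN2B turned to 0.044 (down to -0.16). With a gene's probe sets averaged, E2F4 stood at -0.057, TFDP2 at 0.29, CCND2 at -0.00045 and the TFDP1 change minus the TFDP2 change at -0.42. Without the suffixed probe sets, TFDP2 stood at 0.64 (adjusted p = 0.00235) and RBBP4 at 0.53. RMA values carry no detection call, so members below the array median, 4 probe sets in siPCARNEQ and 2 in siEGFP, have no shown level above background.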
